A study of Mus musculus with 8 samples.

Results

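The mitochondrial respiratory chain was followed through its nuclear genes in 4 sorted populations of mouse myeloid cells. Members were the probe sets whose gene symbol begins with Ndufa, Ndufb, Ndufc, Ndufs, Ndufv, Uqcr, Cox4, Cox5, Cox6, Cox7, Cox8 or Atp5, together with Sdha to Sdhd. The rule found 117 of 24692 probe sets with a symbol, and these stand for 90 of 21441 genes. Each gene was read from its probe set with the highest mean, which mattered for the 20 genes with more than 1 probe set. Complex I held 36 genes, complex II 4, complex III 8, complex IV 20 and complex V 15. These 83 genes included Cox7a2l, a supercomplex factor that was counted with complex IV. The other 7 were the complex I assembly factors Ndufaf1 to Ndufaf4 and Dmac2 (Atp5sl in the table), the ATP synthase coupling factor Dmac2l (Atp5s), and Emc8, a membrane protein biogenesis gene that the table still calls Cox4nb and that is no respiratory chain gene.

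Orthotopic colorectal tumours gave 2 of the populations, macrophages high in F4/80 (F4/80-high TAM, for tumour-associated macrophage) and infiltrating cells high in Ly6C (Ly6C-high TAM). The other populations were macrophages of the tumour-free colon lamina propria (colon macrophages) and Ly6C-high monocytes of the spleen (spleen monocytes), and each population had 2 arrays. All mice were C57BL/6 and Cx3cr1gfp/+, so every group, the tumour-free ones included, carried a green fluorescent reporter in place of 1 copy of Cx3cr1, and no treatment was applied. The tumour arrays were labelled male, colon replicate 1 male and replicate 2 female, and spleen replicate 1 male and replicate 2 mixed. Ages were not given in the sources used here, nor whether the 2 tumour arrays of a population came from separate animals, so p-values describe the spread between these samples only.

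In the chain, complexes I and II pass electrons from NADH and succinate to ubiquinone, complex III passes them to cytochrome c, and complex IV passes them to oxygen. Complexes I, III and IV pump protons, and complex V, the ATP synthase, uses that gradient to make ATP. Most subunits are encoded in the nucleus and a few core subunits in mitochondrial DNA, and assembly factors join them. Macrophages are known to shift between respiration and glycolysis when they are activated, and in some tissues complex IV carries alternative isoforms of single subunits.

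Values are log2 expression values of total RNA after the submitters' normalisation, and a difference of 1 is a 2-fold change. They compare a probe set between arrays, not probe sets with each other. Array medians over 35556 probe sets lay between 6.84 and 7.07, and Csf1r, the macrophage growth factor receptor, read 12.55 to 12.95 on all 8 arrays. Adgre1, which encodes F4/80, read 12.49 and 12.31 in F4/80-high TAM, 11.93 and 11.15 in Ly6C-high TAM, 12.92 and 12.83 in colon macrophages and 12.07 and 12.02 in spleen monocytes, and Ly6c2 read 10.91 and 11.57, 13.01 and 12.71, 9.89 and 10.16, and 12.91 and 12.93 in that order. In the same order, the mean of 8 macrophage markers, Csf1r and Adgre1 included, was 12.57 and 12.40, 12.15 and 11.55, 12.44 and 12.33, and 10.71 and 10.51. That of 7 Ly6C-high monocyte markers, Ly6c2 included, was 10.41 and 9.99, 12.71 and 11.91, 9.05 and 9.18, and 12.72 and 12.71. The single genes thus separated the populations less than their lists did. Of 23 measured epithelial markers, all 23 were higher in colon macrophages than in spleen monocytes and 17 were lower in F4/80-high TAM than in colon macrophages, by limma at an adjusted p of 0.05 or less. The mean of these markers was 6.56 and 8.10 in F4/80-high TAM, 6.66 and 8.57 in Ly6C-high TAM, 10.76 and 11.58 in colon macrophages and 6.80 and 6.21 in spleen monocytes, and none read 0. Colon macrophage arrays therefore carried more epithelial marker RNA than the other arrays, and its part in any difference from them was not tested. In such bulk samples, fewer cells of a type and less RNA per cell cannot be told apart.

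The 90 genes stayed in a narrow band across the populations. The range between the highest and the lowest group mean had a median of 0.414 for the members, against 0.445 for all genes. It reached 1 or more on the log2 scale in 4 members (4.44%: Cox7a1, Ndufa4, Ndufaf1 and Uqcrh), against 20.5% of all genes. The mean of all members was 10.14 and 10.17 in F4/80-high TAM, 10.07 and 9.95 in Ly6C-high TAM, 10.07 and 10.41 in colon macrophages and 10.13 and 10.06 in spleen monocytes. Colon replicate 2 was the highest array and colon replicate 1 lay among the others, so colon overlapped the other populations. The F4/80-high TAM arrays lay above those of Ly6C-high TAM and of spleen monocytes. In colon, 82 of 90 members (91.1%) read higher in replicate 2 than in replicate 1, with a median gap of 0.35, against 47.9% of all genes. The corresponding counts were 47 of 90 for F4/80-high TAM, 35 for the Ly6C-high TAM arrays and 25 in spleen monocytes. The colon replicates also differ in labelled sex and in epithelial marker level, and the part of either in this gap was not tested.

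**Figure D1:**
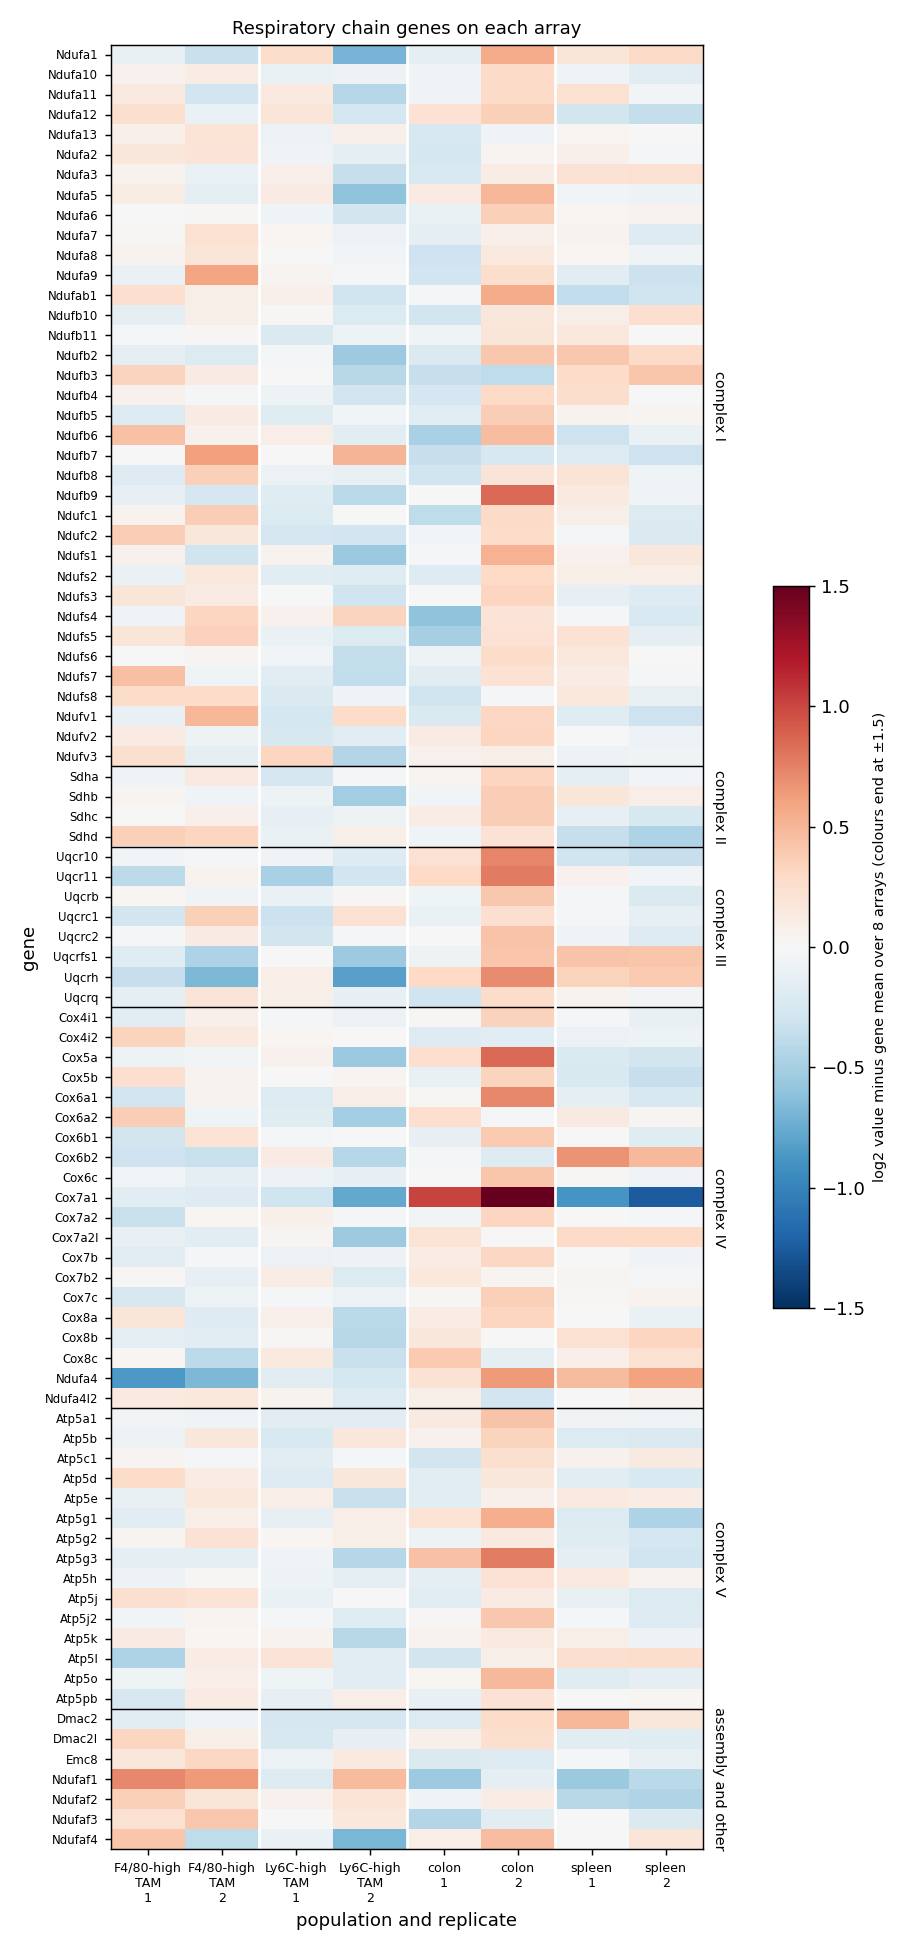
Each row is 1 of the 90 genes and each column 1 array, in order of complex, and colour is the log2 value minus the mean of the gene over the 8 arrays. Most rows are pale, colon replicate 2 is higher than replicate 1 in 82 of 90 rows, and the rows of Cox7a1, Ndufa4 and Ndufaf1 stand out.

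Few respiratory chain genes passed the test between F4/80-high TAM and colon macrophages. With the spread estimated by limma over all 8 arrays and p-values adjusted over 21441 genes, 2 members were higher and 3 were lower in F4/80-high TAM at an adjusted p of 0.05 or less, against 12.3% of all genes called (7.29% higher and 5.05% lower). With the 2-fold limit that the submitters used, 1 was higher and 2 were lower, against 6.39% of all genes. Lower were Cox7a1, Ndufa4 and Atp5g3, and higher were Ndufaf1 and Ndufaf3. The median member difference was -0.09, against 0.05 over all genes, and 78 of 90 members (86.7%) lay within 0.5 of 0, against 74.9% of all genes. The groups did not overlap in 13 members that were higher and 20 that were lower, against 32.7% and 18.1% of all genes. Without colon replicate 2 the median was 0.08 and 54 of 90 members were above 0, against 34 with all arrays, so the sign of the median rests on that array. The count of 5 called members was 7 without either Ly6C-high TAM array, 1 without colon replicate 2, F4/80-high TAM replicate 2 or either spleen array, and 0 without F4/80-high TAM replicate 1.

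Between Ly6C-high TAM and spleen monocytes 0 members passed the adjusted threshold by limma, where 6.74% of all genes were called, and 11 members had an unadjusted p under 0.05, against 21.7% of all genes. Quantile normalization, median centring and a filter on dim genes each called 1 member, Ndufa4, and a replicate block called Ndufa4 and Cox6b2. Without Ly6C-high TAM replicate 1, 9 members were called, and the 2 Ly6C-high TAM arrays also differed in the mean of 30 cell cycle genes, which was 9.90 and 10.24 in F4/80-high TAM, 8.19 and 9.91 in Ly6C-high TAM, 8.58 and 8.93 in colon macrophages and 7.82 and 7.80 in spleen monocytes. The part of these genes in any difference was not tested. The median was -0.06, against -0.08 over all genes. The groups did not overlap in 15 members that were higher and 36 that were lower, against 21.9% and 38.8% of all genes, so the shares of the members lay below the background for higher and near it for lower. Between F4/80-high TAM and Ly6C-high TAM also 0 members passed by limma, where 0.275% of all genes were called, and 7 members had an unadjusted p under 0.05, against 8.57% of all genes. Here 74 of 90 members (82.2%) were above 0, against 61.1% of all genes, and the median was 0.14, against 0.05. In 35 members both F4/80-high TAM arrays lay above both Ly6C-high TAM arrays and in 1 member, Ndufa4, they lay below, against 21.3% and 8.42% of all genes. Without Ly6C-high TAM replicate 2 the median was 0.09 and 60 members were above 0, and with both tumour replicate 2 arrays left out they were 0.06 and 55 (61.1%), the share of all genes.

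Other pairs share these arrays and are given side by side. Between F4/80-high TAM and spleen monocytes, 3 members were higher (Ndufaf1, Ndufaf2 and Sdhd) and 2 lower (Ndufa4 and Cox6b2), against 11.7% of all genes called (7.07% higher and 4.58% lower). Between Ly6C-high TAM and colon macrophages, 3 were lower (Cox7a1, Uqcr11 and Atp5g3), against 11.4% of all genes called and 5.80% called lower. Between colon macrophages and spleen monocytes, 4 were higher (Cox7a1, Atp5g3, Uqcr10 and Atp5g1) and 1 lower (Ndufb3), against 18.5% (9.34% higher and 9.20% lower). Medians of the members were 0.08, -0.22 and 0.14 in these pairs, against -0.02, -0.01 and -0.07 over all genes. Centring each array on its median over genes moved the difference of all genes by -0.23, 0.12 and -0.28 in these pairs and by -0.16 in Ly6C-high TAM minus spleen monocytes. Without colon replicate 2 the median of the third pair was -0.04. With centring the member medians became -0.15, -0.10 and -0.15, so the first and the third changed sign. The distance of the members from all genes was 0.10, -0.21 and 0.21. Centring shifts all genes of an array alike, so it cannot change this distance and is no check of it. Uqcr10, Uqcr11, Ndufb3 and Uqcrh were chosen for naming after their values were seen.

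**Figure D2:**
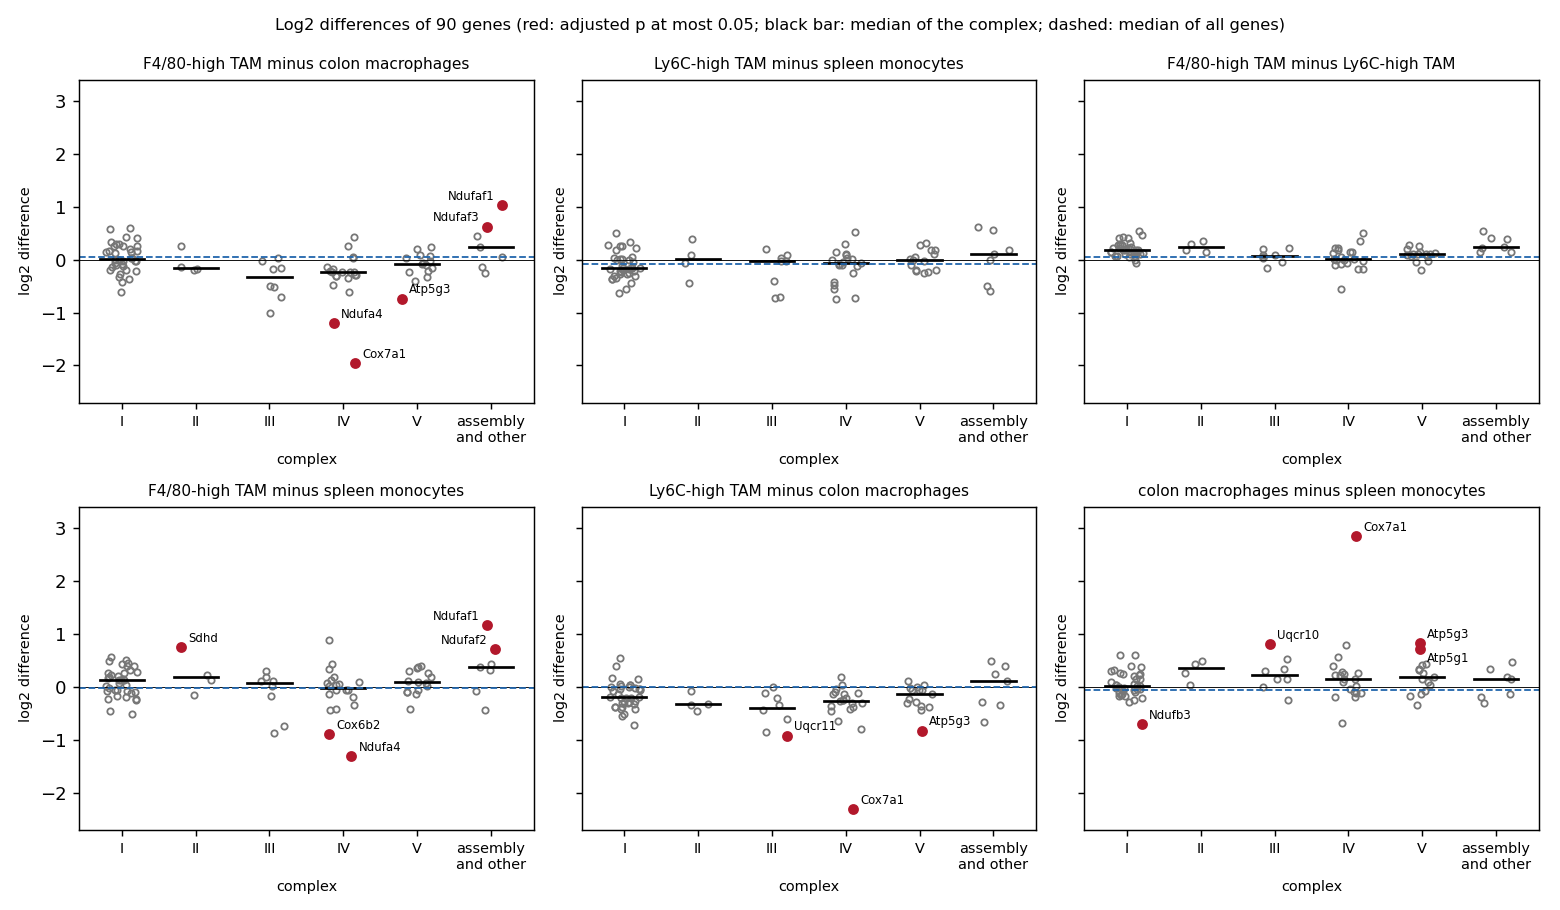
Log2 differences of the 90 genes by complex in the 6 pairs of populations, with 1 point a gene, a black bar for the median of the complex and a dashed line for the median of all genes. Red points are the 18 differences at an adjusted p of 0.05 or less, held by 12 genes. No point is red in Ly6C-high TAM minus spleen monocytes or in F4/80-high TAM minus Ly6C-high TAM.

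Complex I, the entry point for NADH, was represented by 7 core subunits that carry the redox centres and by 29 accessory subunits. No complex I gene was called in either tumour comparison or between the tumour populations. Its median was 0.01 in F4/80-high TAM minus colon macrophages and -0.16 in Ly6C-high TAM minus spleen monocytes. In F4/80-high TAM minus Ly6C-high TAM, 34 of 36 were above 0 with a median of 0.18, but single differences reached only from -0.07 to 0.54. Ndufc2, a membrane arm subunit, had the highest of these, with 12.81 and 12.61 in F4/80-high TAM, 12.19 and 12.15 in Ly6C-high TAM, 12.40 and 12.71 in colon macrophages and 12.43 and 12.23 in spleen monocytes (0.54 ± 0.16 SE, limma adjusted p = 0.319). Both F4/80-high TAM arrays lay above both Ly6C-high TAM arrays, and overlapped with the colon arrays. Ndufs7 and Ndufs8, core iron-sulphur subunits, differed by 0.46 ± 0.21 and 0.42 ± 0.16 in this pair (adjusted p = 0.642 and 0.502).

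Ndufb3, an accessory subunit of the membrane arm, had 8.52 and 8.30 in F4/80-high TAM, 8.19 and 7.77 in Ly6C-high TAM, 7.84 and 7.81 in colon macrophages and 8.46 and 8.61 in spleen monocytes. The F4/80-high TAM arrays lay above the colon arrays, and the Ly6C-high TAM arrays below the spleen arrays. Colon macrophages were lower than spleen monocytes (-0.71 ± 0.17, adjusted p = 0.0329). The difference from colon in F4/80-high TAM was 0.59 ± 0.17 (0.0759) and that from spleen in Ly6C-high TAM was -0.55 ± 0.17 (0.129). The difference between these 2 differences was 1.14 ± 0.24 (limma interaction, adjusted p = 0.0445), and it was the only one called among the 90 members, against 6.56% of all genes. It was kept only without Ly6C-high TAM replicate 1 among the 8 fits with 1 array left out (adjusted p up to 0.192) and lost with quantile normalization or a trended prior (up to 0.0584), and the colon minus spleen difference was lost without either array of those populations (up to 0.207).

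Of the 5 complex I assembly factors, Ndufaf1 to Ndufaf4 and Dmac2, 2 were higher in F4/80-high TAM than in colon macrophages, against 7.29% of all genes. Ndufaf1, a chaperone that joins membrane arm intermediates, had 9.37 and 9.29 in F4/80-high TAM, 8.45 and 9.13 in Ly6C-high TAM, 8.11 and 8.51 in colon macrophages and 8.09 and 8.25 in spleen monocytes. Both F4/80-high TAM arrays were above every other array, and the 2 Ly6C-high TAM arrays differed in the same direction as in the cell cycle genes given above. It was higher than in colon macrophages by 1.02 ± 0.24 (adjusted p = 0.0413) and higher than in spleen monocytes by 1.16 ± 0.24 (0.0286), while the difference from Ly6C-high TAM was 0.54 ± 0.24 (0.627). Ndufaf3, which acts early in assembly, had 9.71 and 9.89 in F4/80-high TAM, 9.49 and 9.64 in Ly6C-high TAM, 9.04 and 9.32 in colon macrophages and 9.49 and 9.27 in spleen monocytes, and both F4/80-high TAM arrays lay above all others. It was higher in F4/80-high TAM than in colon macrophages by 0.62 ± 0.16 (0.0496). Ndufaf2, which acts late in assembly, had 7.66 and 7.48 in F4/80-high TAM, 7.36 and 7.50 in Ly6C-high TAM, 7.24 and 7.41 in colon macrophages and 6.88 and 6.85 in spleen monocytes. It was higher in F4/80-high TAM than in spleen monocytes by 0.70 ± 0.13 (0.0188), with the spleen arrays below the other 6. Ndufaf4 had 8.12 and 7.32 in F4/80-high TAM, 7.60 and 7.02 in Ly6C-high TAM, 7.80 and 8.16 in colon macrophages and 7.71 and 7.89 in spleen monocytes, with overlap between F4/80-high TAM and colon (-0.26 ± 0.31, 0.71). Dmac2 had 8.67 and 8.78, 8.58 and 8.59, 8.63 and 9.11, and 9.34 and 9.01 in the same order. Its mean was highest in spleen monocytes, F4/80-high TAM and colon overlapped, and it was called in no pair.

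Leaving out single arrays ended these calls. Against colon macrophages, Ndufaf1 and Ndufaf3 were lost without either array of F4/80-high TAM, colon or spleen (adjusted p up to 0.201 and 0.212). Of the 8 other alternatives Ndufaf1 was called in 8 and Ndufaf3 in 2, those being median centring and the mean over probe sets (up to 0.120). Against spleen monocytes, Ndufaf1 and Ndufaf2 were lost without either array of F4/80-high TAM or spleen (up to 0.182 and 0.151), and Ndufaf2 also with median centring (0.0946). Assembly factors outside the symbol rule were also read from a list of 45, of which 42 were measured. In F4/80-high TAM minus colon macrophages, 6 were higher and 0 lower, with a median of 0.31 over the 42, against 7.29% and 5.05% of all genes and a median of 0.05. They were Cox18 (0.91 ± 0.15, adjusted p = 0.0135), which inserts a complex IV subunit into the membrane, Coa5, Coa7 and Cmc1, which serve complex IV, and Sdhaf2 and Sdhaf4, which serve complex II. These 6 were named after their values were seen, and the count of 6 was 0 without F4/80-high TAM replicate 1 or colon replicate 1, 1 without F4/80-high TAM replicate 2, 2 without either spleen array, 3 without colon replicate 2 and 10 without either Ly6C-high TAM array. In Ly6C-high TAM minus spleen monocytes 0 of 42 were called, against 6.74% of all genes, and the median was 0.06, but leaving out Ly6C-high TAM replicate 1 gave 2 higher and 3 lower.

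Complex II, which also works in the citric acid cycle, has 4 subunits. Sdhd, a membrane anchor, had 10.97 and 10.94 in F4/80-high TAM, 10.52 and 10.70 in Ly6C-high TAM, 10.55 and 10.83 in colon macrophages and 10.27 and 10.16 in spleen monocytes. F4/80-high TAM was highest on both arrays and spleen lowest. It was higher in F4/80-high TAM than in spleen monocytes by 0.74 ± 0.14 (adjusted p = 0.0205), a call lost without either array of those populations (up to 0.171) or with median centring (0.0763). Against colon macrophages the difference was 0.26 ± 0.14 (0.312). Sdha, the flavoprotein, had 11.20 and 11.40, 11.00 and 11.22, 11.29 and 11.58, and 11.12 and 11.22 in F4/80-high TAM, Ly6C-high TAM, colon macrophages and spleen monocytes in that order. In the same order Sdhb, the iron-sulphur subunit, had 10.85 and 10.76, 10.73 and 10.29, 10.78 and 11.18, and 11.00 and 10.91. Sdhc, the other anchor, had 10.52 and 10.60, 10.39 and 10.44, 10.63 and 10.89, and 10.39 and 10.27. These 3 genes passed the test in no pair, and their differences between F4/80-high TAM and colon macrophages lay from -0.20 to -0.13.

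The 8 members of complex III had a median of -0.34 in F4/80-high TAM minus colon macrophages and of -0.40 in Ly6C-high TAM minus colon macrophages, where 0 of 8 were above 0, against medians of 0.05 and -0.01 over all genes, of which 48.2% were above 0 in the second pair. The mean of the 8 members was 10.56 and 10.67 in F4/80-high TAM, 10.59 and 10.51 in Ly6C-high TAM, 10.76 and 11.23 in colon macrophages and 10.79 and 10.71 in spleen monocytes. Colon replicate 2 was the highest array and colon replicate 1 lay between the spleen arrays, so the size of both medians depends on colon replicate 2. Uqcr11, a small subunit, had 10.05 and 10.49 in F4/80-high TAM, 9.95 and 10.15 in Ly6C-high TAM, 10.74 and 11.21 in colon macrophages and 10.51 and 10.39 in spleen monocytes. Both colon arrays were above all others, and Ly6C-high TAM was lower than colon (-0.92 ± 0.22, adjusted p = 0.0408). Uqcr10, another small subunit, had 9.68 and 9.69 in F4/80-high TAM, 9.66 and 9.53 in Ly6C-high TAM, 9.95 and 10.46 in colon macrophages and 9.42 and 9.38 in spleen monocytes. Colon was again highest on both arrays, and higher than spleen by 0.80 ± 0.18 (0.0236). Uqcrh, the hinge protein, had 11.46 and 11.13 in F4/80-high TAM, 11.90 and 10.99 in Ly6C-high TAM, 12.10 and 12.51 in colon macrophages and 12.13 and 12.19 in spleen monocytes. All tumour arrays lay below all others, but the difference from colon in F4/80-high TAM, -1.01 ± 0.31, did not pass (0.0836). Uqcr11 was lost without colon replicate 2 or either array of Ly6C-high TAM or spleen (up to 0.163) and with the compared populations fitted alone (0.111), and Uqcr10 without colon replicate 2 or either spleen array (up to 0.144) and with median centring (0.0851). Cyc1, the cytochrome c1 subunit outside the symbol rule, differed by -0.61 ± 0.20 (0.106) in F4/80-high TAM minus colon macrophages, and Cycs, cytochrome c itself, by -0.11 ± 0.24 (0.867).

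Complex IV held the largest single differences among the members. Its 12 members other than alternative isoforms had a median of -0.29 in F4/80-high TAM minus colon macrophages, where 1 of 12 was above 0, and of -0.30 in Ly6C-high TAM minus colon macrophages, where 0 of 12 were. In Ly6C-high TAM minus spleen monocytes the median was -0.03. Over all genes the medians were 0.05, -0.01 and -0.08 in that order, with 57.5% and 48.2% above 0 in the pairs with colon. The mean of the 12 members was 11.12 and 11.22 in F4/80-high TAM, 11.26 and 11.12 in Ly6C-high TAM, 11.35 and 11.71 in colon macrophages and 11.31 and 11.26 in spleen monocytes. Both colon arrays were highest, but replicate 1 lay close to spleen replicate 1, so the size of the medians against colon depends on colon replicate 2. Ndufa4 is named as a complex I gene but its product is a subunit of complex IV. It had 8.05 and 8.23 in F4/80-high TAM, 8.75 and 8.64 in Ly6C-high TAM, 9.12 and 9.54 in colon macrophages and 9.38 and 9.51 in spleen monocytes. F4/80-high TAM was lowest and Ly6C-high TAM next, with no overlap between either and any other population, while colon and spleen overlapped. It was lower in F4/80-high TAM than in colon macrophages (-1.20 ± 0.17, adjusted p = 0.00953) and than in spleen monocytes (-1.31 ± 0.17, 0.00526). For Ly6C-high TAM the differences were -0.75 ± 0.17 from spleen monocytes (0.0504) and -0.64 ± 0.17 from colon macrophages (0.0597), which missed the threshold, and F4/80-high TAM minus Ly6C-high TAM was -0.56 ± 0.17 (0.352). The difference from colon was lost only without F4/80-high TAM replicate 1 (0.0552) and that from spleen only without spleen replicate 2 (0.0626), and both were called in all 8 other alternatives.

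A protein that can take the place of the Ndufa4 product in complex IV is encoded by AA467197 (Nmes1), the mouse counterpart of human C15orf48, which is known to be induced in inflammatory macrophages. It lies outside the symbol rule and was followed as a fixed gene. Its values were 12.37 and 12.21 in F4/80-high TAM, 12.91 and 12.39 in Ly6C-high TAM, 10.55 and 11.45 in colon macrophages and 6.86 and 6.35 in spleen monocytes. The 2 tumour populations lay close together and above colon, and spleen lay far below. Ly6C-high TAM was higher than spleen monocytes by 6.04 ± 0.34 (adjusted p = 0.000356) and higher than colon macrophages by 1.65 ± 0.34 (0.0257), the second being lost without colon replicate 1, Ly6C-high TAM replicate 1 or either spleen array (up to 0.0968) or with the compared populations fitted alone (0.0934). F4/80-high TAM minus colon macrophages was 1.29 ± 0.34 and missed the threshold (0.0536). Colon macrophages were higher than spleen monocytes by 4.39 ± 0.34 (0.000511), a pair in which the Ndufa4 difference was -0.11 ± 0.17 (0.753). The epithelial marker mean was also higher in colon than in spleen, with colon replicate 2 above replicate 1 as for AA467197. The part of those markers in this difference was not tested. The hairpin of Mir147, a microRNA known in humans to target NDUFA4 mRNA, lies within this gene (chr2:122640803-122640881, GRCm38.p6, inside chr2:122637887-122641076), and it was not measured here under its own symbol. Ndufa4l2, a paralogue of Ndufa4 known to respond to hypoxia, had 6.77 and 6.79 in F4/80-high TAM, 6.69 and 6.43 in Ly6C-high TAM, 6.71 and 6.34 in colon macrophages and 6.63 and 6.68 in spleen monocytes, with overlap and no call (0.25 ± 0.16 from colon in F4/80-high TAM, 0.41).

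**Figure D3:**
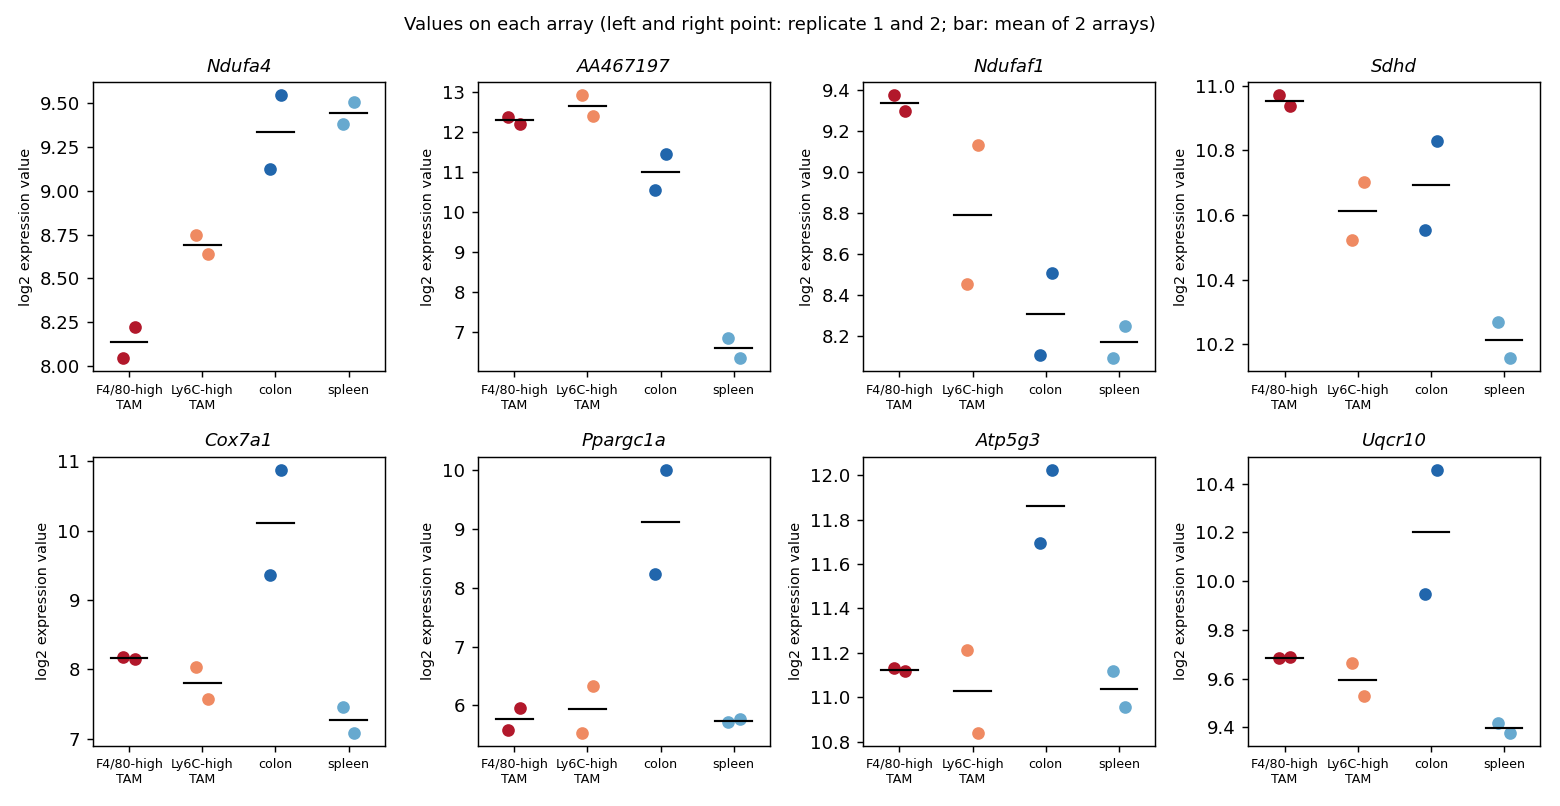
Log2 values of 8 genes on each array by population, where points are arrays and bars are means of 2 arrays, with an axis of its own for each gene. Ndufa4 is lowest in both tumour populations and AA467197 highest there, Ndufaf1 and Sdhd are highest in F4/80-high TAM, and Cox7a1, Ppargc1a, Atp5g3 and Uqcr10 are highest in colon macrophages.

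Cox7a1 encodes the heart and muscle isoform of subunit 7a. It had 8.17 and 8.15 in F4/80-high TAM, 8.03 and 7.57 in Ly6C-high TAM, 9.36 and 10.87 in colon macrophages and 7.46 and 7.09 in spleen monocytes. Colon was highest on both arrays, and its replicates differed by 1.52. It was lower in F4/80-high TAM than in colon macrophages (-1.95 ± 0.46, adjusted p = 0.0400) and lower in Ly6C-high TAM than in colon macrophages (-2.31 ± 0.46, 0.0239), and colon macrophages were higher than spleen monocytes (2.84 ± 0.46, 0.00756). The first was lost without colon replicate 2 or either array of F4/80-high TAM or spleen (up to 0.145), the second without Ly6C-high TAM replicate 2 or either spleen array (up to 0.0708), and the third only without spleen replicate 2 (0.0646). Colon arrays were highest for the epithelial markers given above too, replicate 2 above replicate 1 in both, while between the tumour replicates the marker mean was higher in replicate 2 and Cox7a1 was not. The mean of 6 smooth muscle markers was 6.71 and 7.54 in F4/80-high TAM, 6.79 and 8.00 in Ly6C-high TAM, 8.13 and 8.06 in colon macrophages and 6.98 and 6.89 in spleen monocytes. Both colon arrays were highest for them too, with replicate 1 above replicate 2. The part of either marker list was not tested. The calls of Cox7a1 in the tumour populations were also lost with the compared populations fitted alone or without both tumour replicate 2 arrays (up to 0.0845 and 0.101). Its ubiquitous counterpart Cox7a2 differed by -0.29 ± 0.18 in F4/80-high TAM minus colon macrophages (0.379).

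The other isoform pairs passed no test between tumour and colon. Cox6b2, the testis isoform of subunit 6b, had 6.95 and 6.93 in F4/80-high TAM, 7.39 and 6.84 in Ly6C-high TAM, 7.24 and 7.07 in colon macrophages and 7.93 and 7.75 in spleen monocytes. Spleen was highest on both arrays, and F4/80-high TAM was lower than spleen (-0.90 ± 0.19, adjusted p = 0.0320), a call lost in 6 of 8 fits with 1 array left out and kept only without an array of Ly6C-high TAM (up to 0.205). Cox4i2, the lung isoform of subunit 4 that is known to respond to low oxygen, had 7.66 and 7.48 in F4/80-high TAM, 7.36 and 7.32 in Ly6C-high TAM, 7.13 and 7.17 in colon macrophages and 7.24 and 7.25 in spleen monocytes. Both F4/80-high TAM arrays were above all others, but the difference from colon did not pass (0.42 ± 0.12, 0.0639). Cox4i1, the ubiquitous form, differed by -0.23 ± 0.16 (0.442), Cox6a1 by -0.48 ± 0.25 (0.301) and Cox6a2, the muscle form, by 0.05 ± 0.20 (0.937) in the same pair.

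In complex V the called members belonged to the c-ring. The genes Atp5g1, Atp5g2 and Atp5g3 encode the same mature c subunit, the proton-carrying ring. Atp5g3 had 11.13 and 11.12 in F4/80-high TAM, 11.21 and 10.84 in Ly6C-high TAM, 11.70 and 12.02 in colon macrophages and 11.12 and 10.96 in spleen monocytes. Colon was highest and the other 3 populations lay close together. It was lower in F4/80-high TAM than in colon (-0.74 ± 0.18, adjusted p = 0.0426), lower in Ly6C-high TAM than in colon (-0.83 ± 0.18, 0.0296), and higher in colon than in spleen (0.82 ± 0.18, 0.0211). The first call was kept only without an array of Ly6C-high TAM (up to 0.169), the second was lost without colon replicate 2, Ly6C-high TAM replicate 2 or either array of F4/80-high TAM or spleen (up to 0.130), and the third without colon replicate 2 or either spleen array (up to 0.151). All 3 were lost with median centring, the first 2 also with the compared populations fitted alone or without both tumour replicate 2 arrays, and the first with a replicate block (up to 0.0789, 0.134 and 0.0934). Atp5g1 had 12.09 and 12.34 in F4/80-high TAM, 12.13 and 12.34 in Ly6C-high TAM, 12.46 and 12.80 in colon macrophages and 12.04 and 11.79 in spleen monocytes. It was higher in colon than in spleen (0.71 ± 0.18, 0.0374), lost without either array of those populations (up to 0.237) or with median centring (0.105), and its difference from colon in F4/80-high TAM was -0.41 ± 0.18 (0.208). Atp5g2 differed there by 0.09 ± 0.13 (0.769). The 5 genes of the catalytic head had a median of 0.04 in F4/80-high TAM minus colon macrophages, and 0 of the 5 passed in any pair.

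Promoters are shown for 4 of the called members, from complexes II, IV and V, and for AA467197, to set their sequence beside the levels. They were chosen after the values were seen. They are RefSeq windows of GRCm38.p6 of the 250 bases before the transcript start that the table uses, read 5′ to 3′ on the strand of the gene: Ndufa4 at chr6:11907451-11907700 (minus strand), AA467197 at chr2:122637637-122637886 (plus), Cox7a1 at chr7:30183921-30184170 (plus), Atp5g3 at chr2:73911327-73911576 (minus) and Sdhd at chr9:50603850-50604099 (minus). The start used for Atp5g3 lies inside the annotated span of the gene, and the other 4 windows lie just outside their genes. Capitals mark matches, on either strand, to the motifs of NRF1 (GCGCA and GCGC parted by any 1 base), ETS factors (CCGGAAGT), oestrogen-related receptors (AAGGTCA) and hypoxia-inducible factors (ACGTG or GCGTG), which can overlap each other.
Ndufa4: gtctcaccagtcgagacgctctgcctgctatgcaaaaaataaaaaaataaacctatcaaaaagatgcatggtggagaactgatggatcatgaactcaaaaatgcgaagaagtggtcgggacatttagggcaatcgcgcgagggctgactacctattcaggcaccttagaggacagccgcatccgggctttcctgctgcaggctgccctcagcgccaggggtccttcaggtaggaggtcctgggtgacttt
AA467197: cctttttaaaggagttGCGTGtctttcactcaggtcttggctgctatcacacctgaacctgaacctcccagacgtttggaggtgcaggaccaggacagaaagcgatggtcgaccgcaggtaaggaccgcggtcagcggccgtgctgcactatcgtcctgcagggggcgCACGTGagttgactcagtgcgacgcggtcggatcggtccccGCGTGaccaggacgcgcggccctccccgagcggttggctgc
Cox7a1: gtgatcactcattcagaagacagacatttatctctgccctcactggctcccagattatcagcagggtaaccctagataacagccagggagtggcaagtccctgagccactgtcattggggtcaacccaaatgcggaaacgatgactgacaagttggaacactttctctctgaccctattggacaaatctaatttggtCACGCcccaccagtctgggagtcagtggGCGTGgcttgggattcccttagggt
Atp5g3: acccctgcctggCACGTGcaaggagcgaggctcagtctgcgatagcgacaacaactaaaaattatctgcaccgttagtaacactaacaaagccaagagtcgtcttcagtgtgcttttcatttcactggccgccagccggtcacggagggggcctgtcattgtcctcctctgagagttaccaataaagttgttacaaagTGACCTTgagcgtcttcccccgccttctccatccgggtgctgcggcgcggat
Sdhd: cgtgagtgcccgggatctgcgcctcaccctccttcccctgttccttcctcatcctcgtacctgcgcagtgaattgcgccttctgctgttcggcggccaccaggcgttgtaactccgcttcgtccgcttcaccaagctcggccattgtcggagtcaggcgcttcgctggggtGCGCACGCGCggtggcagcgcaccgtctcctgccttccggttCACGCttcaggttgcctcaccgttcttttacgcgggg

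Ndufa4 held none of the 4 motifs. AA467197 held 4 matches to the hypoxia motif, 2 of them on opposite strands of a single CACGTG, and Cox7a1 held 2. Atp5g3 held 1 match to the oestrogen-related receptor motif and 2 to the hypoxia motif, these also on opposite strands of a single CACGTG. Sdhd held 1 NRF1 match and 2 hypoxia matches, 1 of which lies inside the NRF1 match. Windows were available for 74 of the 90 members. An NRF1 match was present in 13 of 74 (17.6%), against 3.81% of 27025 promoters, and a hypoxia match in 38 (51.4%), against 38.4%. ETS matches were present in 3 (4.05%), against 2.92%, and oestrogen-related receptor matches in 5 (6.76%), against 4.07%. A match is a description of letters and not evidence that a factor binds.

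Most measured subunits encoded in mitochondrial DNA were lower in F4/80-high TAM than in colon macrophages. Of 13 such genes 10 were measured, and 7 were lower and 0 higher, with a median of -0.62, against 3 of 90 nuclear members lower and 5.05% of all genes lower, 7.29% higher. ND3, a complex I subunit, had 11.78 and 11.83 in F4/80-high TAM, 11.97 and 12.07 in Ly6C-high TAM, 12.93 and 12.84 in colon macrophages and 12.27 and 12.24 in spleen monocytes. No 2 populations overlapped. It was lower in F4/80-high TAM than in colon (-1.08 ± 0.11, adjusted p = 0.00389) and lower in Ly6C-high TAM than in colon (-0.87 ± 0.11, 0.00569), both called with any array left out, the second being lost with the compared populations fitted alone (0.0652), while Ly6C-high TAM minus spleen monocytes was -0.24 ± 0.11 (0.274). COX2 and ATP6, chosen after their values were seen, were lower too, with differences of -0.62 ± 0.12 (0.0228) and -0.64 ± 0.14 (0.0347), and COX1 (-0.51 ± 0.14, 0.06), CYTB (-0.44 ± 0.12, 0.058) and ND6 did not pass. The mean of the 10 genes was 12.55 and 12.44 in F4/80-high TAM, 12.74 and 12.61 in Ly6C-high TAM, 13.29 and 13.03 in colon macrophages and 12.84 and 12.82 in spleen monocytes. Of the 10 genes, 7 were lower with all arrays, 5 without colon replicate 2 and 1 with median centring, with the 2 populations fitted alone, or without colon replicate 1 or either array of F4/80-high TAM or spleen, and the median stayed between -0.73 and -0.48 in all settings run.

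Genes that make the mitochondrial ribosome, which translates those subunits, gave counts in the other direction. Of 77, 16 were higher and 0 lower in F4/80-high TAM than in colon macrophages, with a median of 0.44, against 7.29% of all genes higher and 5.05% lower. In Ly6C-high TAM minus spleen monocytes 2 were higher and 1 lower, with a median of -0.01, against 3.82% of all genes higher and 2.92% lower, so these counts are near the background. Mrpl47, of the large subunit, was higher by 1.00 ± 0.25 (adjusted p = 0.0499) in the first pair, a call kept among the fits with 1 array left out only without an array of Ly6C-high TAM (up to 0.223), and lost with a trended prior or with the compared populations fitted alone (up to 0.0539). The count of 16 was 0 without colon replicate 1 or either spleen array, 1 without either F4/80-high TAM array or with the 2 populations fitted alone, and 10 without colon replicate 2. In the second pair, leaving out Ly6C-high TAM replicate 1 gave 4 higher and 6 lower, and it was 0 higher without either F4/80-high TAM array, either spleen array or Ly6C-high TAM replicate 2. Among 17 genes of the citric acid cycle and pyruvate dehydrogenase, Suclg1 and Suclg2, succinyl-CoA ligase subunits, were lower in F4/80-high TAM than in colon (-1.10 ± 0.23, 0.0280, and -1.20 ± 0.23, 0.0235), each lost without colon replicate 2 or either array of F4/80-high TAM or spleen (up to 0.107 and 0.110). Suclg2 was also lost with the compared populations fitted alone and without both tumour replicate 2 arrays. In Ly6C-high TAM minus spleen monocytes 0 of the 17 were called, against 6.74% of all genes.

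Most measured glycolysis genes were higher in both tumour populations. Of 19, 12 were higher and 0 lower in F4/80-high TAM than in colon macrophages, with a median of 0.85, against 7.29% of all genes higher. In Ly6C-high TAM minus spleen monocytes 13 were higher and 0 lower, with a median of 1.11, against 3.82% of all genes higher. Fibroblast markers also differed in the second pair, where 3 of 11 were higher, 10 of 11 were above 0 and the median was 1.94. Their mean was 7.44 and 8.63 in F4/80-high TAM, 7.94 and 9.44 in Ly6C-high TAM, 8.17 and 8.45 in colon macrophages and 6.55 and 6.55 in spleen monocytes, and its part was not tested. The tumour replicate 2 arrays had the higher fibroblast means, but the replicate 1 arrays also lay above the spleen arrays. Leaving out arrays therefore cannot separate these markers from the glycolysis genes. Slc16a3, a lactate exporter, was higher by 2.95 ± 0.20 (adjusted p = 0.00134) in the first pair and by 1.34 ± 0.20 (0.0127) in the second. In the same order Aldoc, an aldolase, was higher by 1.68 ± 0.29 (0.0179) and 2.34 ± 0.29 (0.0062). The glucose transporter Slc2a1 was higher by 1.16 ± 0.26 (0.0371) and 2.49 ± 0.26 (0.00329). Its call against colon was lost with the compared populations fitted alone and without both tumour replicate 2 arrays. Against colon, Slc2a1 was kept only without an array of Ly6C-high TAM (up to 0.164) and Aldoc was lost without colon replicate 1 or F4/80-high TAM replicate 2 (up to 0.0783), and against spleen Slc16a3 and Aldoc were lost without either spleen array (up to 0.110 and 0.0699). The mean over the list was 11.33 and 11.68 in F4/80-high TAM, 11.63 and 11.69 in Ly6C-high TAM, 10.44 and 10.68 in colon macrophages and 10.56 and 10.50 in spleen monocytes, with no overlap between tumour and tumour-free arrays. With 1 array left out the counts ranged from 3 to 12 and from 3 to 13, with 0 lower each time, and in the first pair were 3 without colon replicate 1, 4 without colon replicate 2 or F4/80-high TAM replicate 2 and 6 without either spleen array, and in the second 3 without either spleen array and 8 without Ly6C-high TAM replicate 2. Hif1a, which encodes a subunit of the hypoxia-inducible factor, was higher by 0.73 ± 0.18 (0.0434) and 1.00 ± 0.18 (0.0230), the first being lost without colon replicate 1 or either array of F4/80-high TAM or spleen (up to 0.169) and the second without either spleen array (up to 0.179) or with median centring (up to 0.0565), and both with the compared populations fitted alone. Bnip3, a mitophagy receptor and textbook target of that factor, was higher by 3.11 ± 0.22 (0.00146) and 2.12 ± 0.22 (0.00298), both called with any array left out. The Hif1a call against colon was also lost without both tumour replicate 2 arrays.

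**Figure D4:**
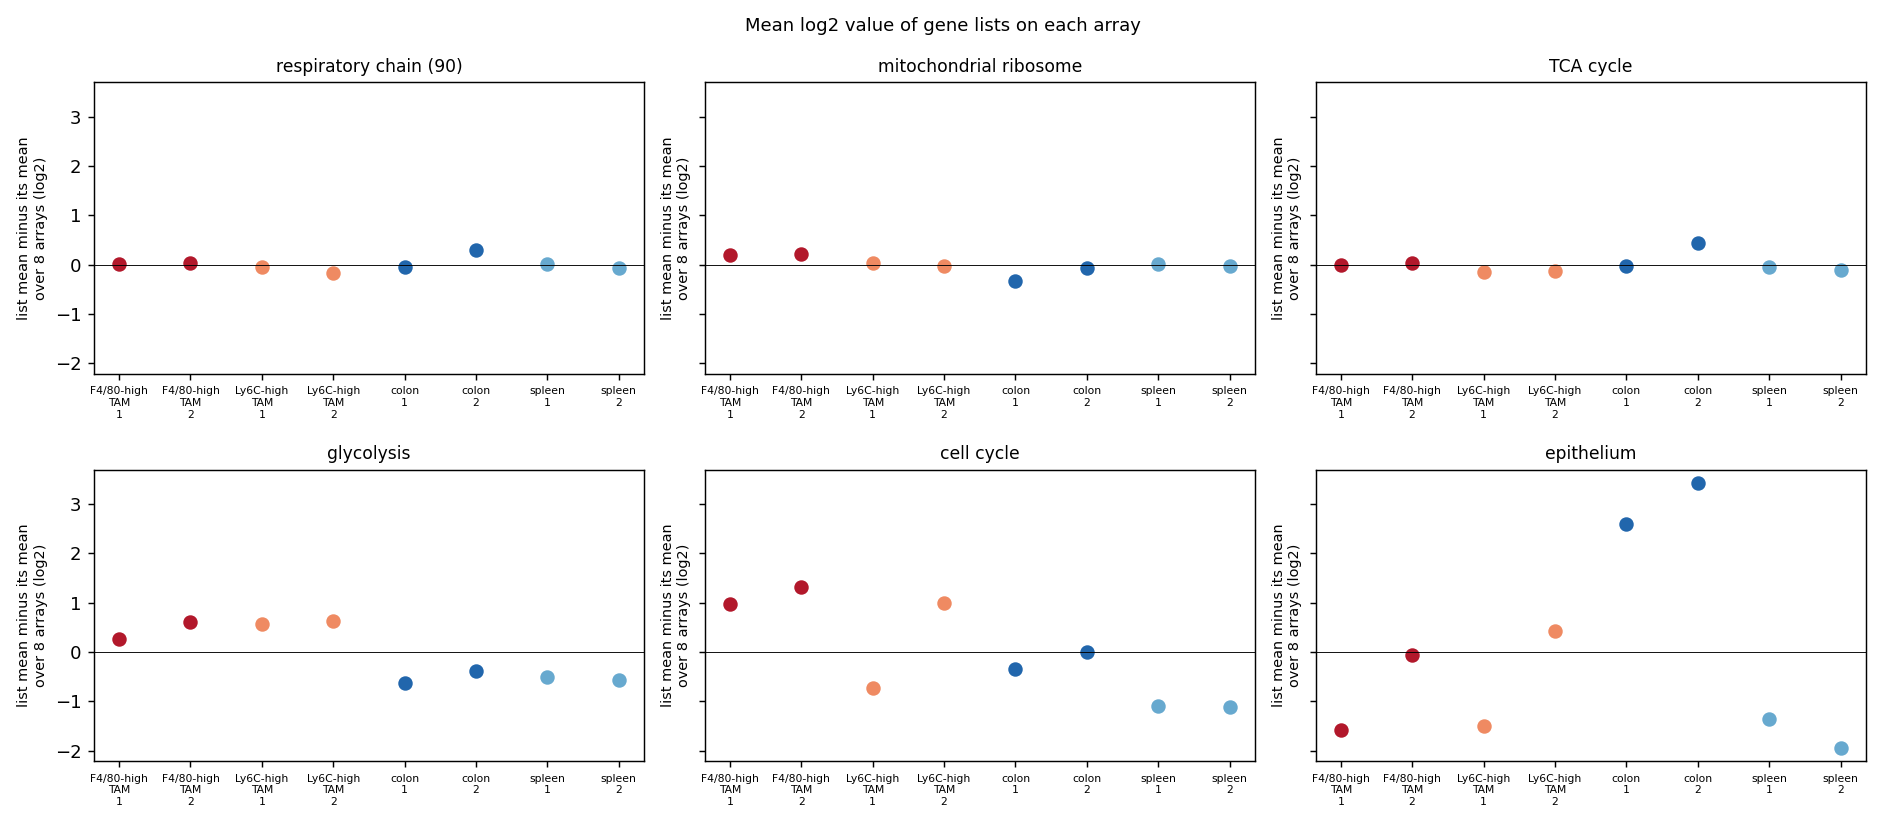
Mean log2 value of 6 gene lists on each array, as a deviation from the mean over the 8 arrays and on 1 shared axis. The respiratory chain stays near 0 on 7 arrays and is highest in colon replicate 2, glycolysis is above 0 on all 4 tumour arrays, and epithelial markers are highest on both colon arrays.

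Of the regulators of mitochondrial gene expression, the coactivator Ppargc1a (PGC-1α) differed most. It had 5.58 and 5.96 in F4/80-high TAM, 5.54 and 6.33 in Ly6C-high TAM, 8.24 and 10.01 in colon macrophages and 5.71 and 5.77 in spleen monocytes. Colon was highest on both arrays, with a gap between its replicates in the same direction as that of Cox7a1 and of the epithelial markers, whose part was not tested. It was lower in F4/80-high TAM than in colon (-3.35 ± 0.55, adjusted p = 0.0147), lost without either F4/80-high TAM array (up to 0.0739), and lower in Ly6C-high TAM than in colon (-3.19 ± 0.55, 0.0151), lost with the compared populations fitted alone (0.0772). Ppargc1b (PGC-1β) had 8.32 and 8.23 in F4/80-high TAM, 7.74 and 7.47 in Ly6C-high TAM, 8.74 and 9.21 in colon macrophages and 7.78 and 7.57 in spleen monocytes. It was lower in Ly6C-high TAM than in colon (-1.37 ± 0.19, 0.00782), lost in the same fit (0.0558), and the difference in F4/80-high TAM was -0.70 ± 0.19 (0.063). Nrf1, Esrra, Tfam and the uncoupling protein gene Ucp2 differed by 0.05, -0.30, -0.20 and 0.04 between F4/80-high TAM and colon macrophages and passed no test there. Tfam, a mitochondrial transcription factor, was lower in F4/80-high TAM than in spleen monocytes (-1.11 ± 0.28, 0.0493), a call lost without either array of F4/80-high TAM, colon or spleen (up to 0.253), with a replicate block or without both tumour replicate 2 arrays (up to 0.0747). Myc, a growth regulator, was higher in Ly6C-high TAM than in spleen monocytes (2.96 ± 0.19, 0.000603), and its difference between F4/80-high TAM and colon macrophages was 0.50 ± 0.19 (0.16). Compared with spleen monocytes, Myc was also higher in F4/80-high TAM (3.09, limma adjusted p = 0.000314) and in colon macrophages (2.59, 0.000485). A higher level than in spleen was therefore not particular to Ly6C-high TAM.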

How the data were processed

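Total RNA of sorted cells was prepared with the microRNeasy kit, labelled with biotin and hybridised to Affymetrix arrays, per the labels' protocols. The authors deposited log2 values per probe set, which the submitters' processing notes credit to RMA in Partek 6.6. A genome build for them is not given in the sources used here. Values of 35556 probe sets on 8 arrays came from the series matrix and symbols from the deposited annotated table, of which 8 columns of values with headings that match no sample were not used. Of 24692 probe sets with a symbol, 21023 were matched by accession to GRCm38.p6. The number of arrays limits the precision.

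The model was fitted in R 4.3.3 by limma 3.58.1 on all 8 arrays, with 1 mean for each population (4 residual and 2.64 prior degrees of freedom), and p-values were adjusted by Benjamini-Hochberg over 21441 genes. Errors of differences are standard errors of that fit. The fit was tested on simulated data. Genes were called at an adjusted p of 0.05, and with a 2-fold limit after the submitters' 5% criterion. The members, lists and tests were chosen with earlier results of these data known. The naming rule took members called with the 2-fold limit or leading the tumour comparisons, isoform pairs, the Sdh and Ndufaf genes, known regulators and up to 4 genes a list past that limit. The labels do not say that replicate numbers pair the samples. Deviations of same-numbered arrays correlated at 0.77 between the tumour populations and at -0.155 to 0.259 in the other pairs, so the numbers were not taken as pairs over the series. The replicate block, 1 term shared by all 8 arrays, also called 0 members between the tumour populations. It does not model a pairing of the tumour arrays alone, which was not fitted. Alternatives were median centring, quantile normalization, the mean over probe sets, a filter at the 25th percentile of level, fits of the compared groups alone, a trended prior, a replicate block, and leaving out arrays.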

Additional observations from a re-analysis of the deposited data

Results flagged for a closer look

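Differences between the 2 tumour contrasts passed the test of the difference itself, that is F4/80-high TAM minus colon macrophages, less Ly6C-high TAM minus spleen monocytes, in limma. Among the 90 respiratory chain genes this was Ndufb3 (1.14 ± 0.24 SE, adjusted p = 0.0445). The other genes followed by name were AA467197 (-4.75 ± 0.47, 0.00599), Myc (-2.46 ± 0.28, 0.00773), Ppargc1a (-3.55 ± 0.78, 0.0482), the mitochondrially encoded ND3 (-0.84 ± 0.16, 0.0318) and Slc16a3 (1.60 ± 0.28, 0.0277). A negative value means that the difference from colon macrophages in F4/80-high TAM was the lower of the 2 differences. Such a value also holds any difference between the tumour-free populations, so it does not by itself show that the tumour populations differ. Colon macrophages minus spleen monocytes was 4.39 for AA467197, 2.59 for Myc, 3.39 for Ppargc1a and 0.63 for ND3. It was -2.26 for Slc16a3 and -0.71 for Ndufb3. With 1 array left out, AA467197 and Myc were called in 8 of 8 fits (adjusted p up to 0.0387 and 0.0381), Slc16a3 in 4 (up to 0.133, lost without any colon or spleen array), Ppargc1a in 2 (up to 0.171, kept without colon replicate 1 or Ly6C-high TAM replicate 1), and ND3 and Ndufb3 in 1 (up to 0.161 and 0.192, kept without Ly6C-high TAM replicate 1). ND3 was also lost with median centring, and ND3 and Ppargc1a without both tumour replicate 2 arrays (up to 0.0981 and 0.0913). Groups of 2 arrays cannot be searched for outlying arrays.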

How the results depend on the processing

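Of 18 member differences called in the 6 pairs, 0 were called with every array left out in turn, 3 were lost with 1 array only and 15 with 3 or more. The counts of called members, over the fits without 1 array, ranged from 0 to 7 in F4/80-high TAM minus colon macrophages (0 to 4 with the 2-fold limit), 0 to 9 in Ly6C-high TAM minus spleen monocytes (0 to 2), 0 to 0 in F4/80-high TAM minus Ly6C-high TAM (0 to 0), 0 to 7 in F4/80-high TAM minus spleen monocytes (0 to 2), 0 to 7 in Ly6C-high TAM minus colon macrophages (0 to 4), 0 to 8 in colon macrophages minus spleen monocytes (0 to 2) and 0 to 2 in the interaction. In the same order of the 6 pairs the member medians ranged from -0.25 to 0.08, -0.12 to -0.02, 0.09 to 0.19, 0.02 to 0.13, -0.40 to -0.08 and -0.04 to 0.33. Median centring gave 1 call in Ly6C-high TAM minus spleen monocytes, 3 in F4/80-high TAM minus spleen monocytes (median -0.15, against 0.08) and 3 in colon macrophages minus spleen monocytes (median -0.15, against 0.14), because it lowers every gene of these pairs alike. Quantile normalization gave 1 in Ly6C-high TAM minus spleen monocytes, 8 (2 with the 2-fold limit) in Ly6C-high TAM minus colon macrophages, 12 in colon macrophages minus spleen monocytes and 0 in the interaction. Fitting the compared groups alone gave 3, 9, 0 (0) and 9 calls in F4/80-high TAM minus colon macrophages, F4/80-high TAM minus spleen monocytes, Ly6C-high TAM minus colon macrophages and colon macrophages minus spleen monocytes. The filter on dim genes gave 1 call in Ly6C-high TAM minus spleen monocytes, a trended prior 0 in the interaction, and leaving out both tumour replicate 2 arrays 1 in Ly6C-high TAM minus colon macrophages and 9 in colon macrophages minus spleen monocytes. With a replicate block the calls were 3 in F4/80-high TAM minus colon macrophages, 2 in Ly6C-high TAM minus spleen monocytes, and 0, 5, 4, 6 and 1 in the remaining comparisons in the order above. Where not stated, the cause was not tested. With 2 arrays a group, no member difference smaller in size than 0.62 was called. No single gene changed direction while called: of the values of named genes under the alternatives, 325 lost a call and 127 gained one.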
